A study of Mus musculus with 6 samples.

Results

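Lipocalin 2, ferritin and 7 further gene products through which cells take up, store, export and sense iron were followed in HT22 cells exposed to interleukin 17 (IL-17). The 10 genes Lcn2, Tfrc, Fth1, Ftl1, Slc40a1, Slc11a2, Steap3, Steap4, Ireb2 and Aco1 were taken by symbol from a table of 26595 mouse genes, and all 10 were in it. HT22 is an immortalised mouse hippocampal line of neuronal origin, and the labels give all libraries the genotype WT (wild type). In 3 libraries the cells had been exposed to IL-17, and in 3 control libraries they had no special treatment; dose and duration are not given in the sources used here. The submitters give a possible link between IL-17 and the JAK1-STAT6 pathway as the question. The sources used here do not state whether each library was a culture of its own, so the p-values reflect the spread among these libraries alone, and that spread may be technical.

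Cells take up iron bound to transferrin through the transferrin receptor, reduce it in endosomes with STEAP reductases and move it into the cytosol through the transporter DMT1, the product of Slc11a2. Spare iron is stored in ferritin, a shell of heavy and light chains, and leaves the cell through ferroportin, the product of Slc40a1. The iron regulatory proteins encoded by Aco1 and Ireb2 bind hairpins called iron-responsive elements (IREs) when iron is scarce. Bound in the 5′ untranslated region (UTR) they block translation, and bound in the 3′ UTR of the transferrin receptor transcript they protect it from decay. Lipocalin 2 is a secreted acute-phase protein that binds bacterial siderophores and so withholds iron from microbes; it is a known target of IL-17 signalling.

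The IREs are shown because they are what the iron-regulated members share and because they sort these genes by the direction of control. A search of GENCODE vM21 transcripts for a bulged C, 5 paired bases, a CAGTGN or CAGAGN loop without G in its last place, and 5 bases pairing back found a UTR match in 4 of the 10 genes. The same pattern was found in a UTR of 243 of 21901 protein-coding genes, or 1.11%. Each match is given as 29 bases of DNA, 5′ to 3′ on the coding strand, with the 6-base loop in capitals (GRCm38). The matches lay in the 5′ UTR of Fth1 (chr19:9982732-9982760, plus strand), Ftl1 (chr7:45459779-45459807, minus strand) and Slc40a1 (chr1:45925465-45925493, minus strand), and at 5 places in the 3′ UTR of Tfrc (chr16, plus strand, first at chr16:32631160-32631188 and last at chr16:32631710-32631738).
Fth1: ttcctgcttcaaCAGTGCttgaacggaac
Ftl1: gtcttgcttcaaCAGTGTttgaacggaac
Slc40a1: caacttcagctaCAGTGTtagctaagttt
Tfrc site 1: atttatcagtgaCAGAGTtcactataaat
Tfrc site 2: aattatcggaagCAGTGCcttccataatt
Tfrc site 3: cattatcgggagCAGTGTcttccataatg
Tfrc site 4: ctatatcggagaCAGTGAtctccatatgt
Tfrc site 5: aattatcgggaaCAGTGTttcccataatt
The match is a match of letters, and no such letters were found in the Slc11a2 transcripts searched. The pattern allowed no unpaired or extra base in the 5-base arms, so a hairpin with such a base would be missed. The search therefore cannot say whether Slc11a2 carries an IRE.

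Of the 10 genes, Lcn2, Steap4, Tfrc and Fth1 rose with IL-17, none fell, 5 did not pass the test and Slc40a1 was too low to be tested. Lcn2 stood apart in size, at 3.14 times its control mean, while the others that rose stood at 1.24 to 1.64 times. The test was limma on log2(FPKM + 1), with Benjamini-Hochberg adjustment over the 12953 genes of mean FPKM at least 0.5 (FPKM, fragments per kilobase of transcript, scaled to library size); a gene was called at an adjusted p under 0.05. In that fit 0.95% of all tested genes rose and 0.996% fell. At an unadjusted limma p under 0.05, 6 of the 9 were higher and 0 lower, where 8.89% of all tested genes were higher and 7.84% lower. In 7 of the 9 tested members every IL-17 library lay above every control library, as it did for 13.3% of all tested genes. The median log2 difference of the 9 was 0.22, against 0.02 over all tested genes. With 1 library omitted 2 or 3 of the 9 passed, 2 on omitting IL-17 library 2 or 3 or control library 2 or 3. IL-17 library 1 carried more liver transcripts, and control library 3 more lung transcripts, than the others of their group. Without these 2 libraries 1 of the 9 passed. IL-17 library 3, kept in that fit, had the highest lung marker sum of its group, at 168.7 FPKM against 74.7 and 64.3.

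**Figure D1:**
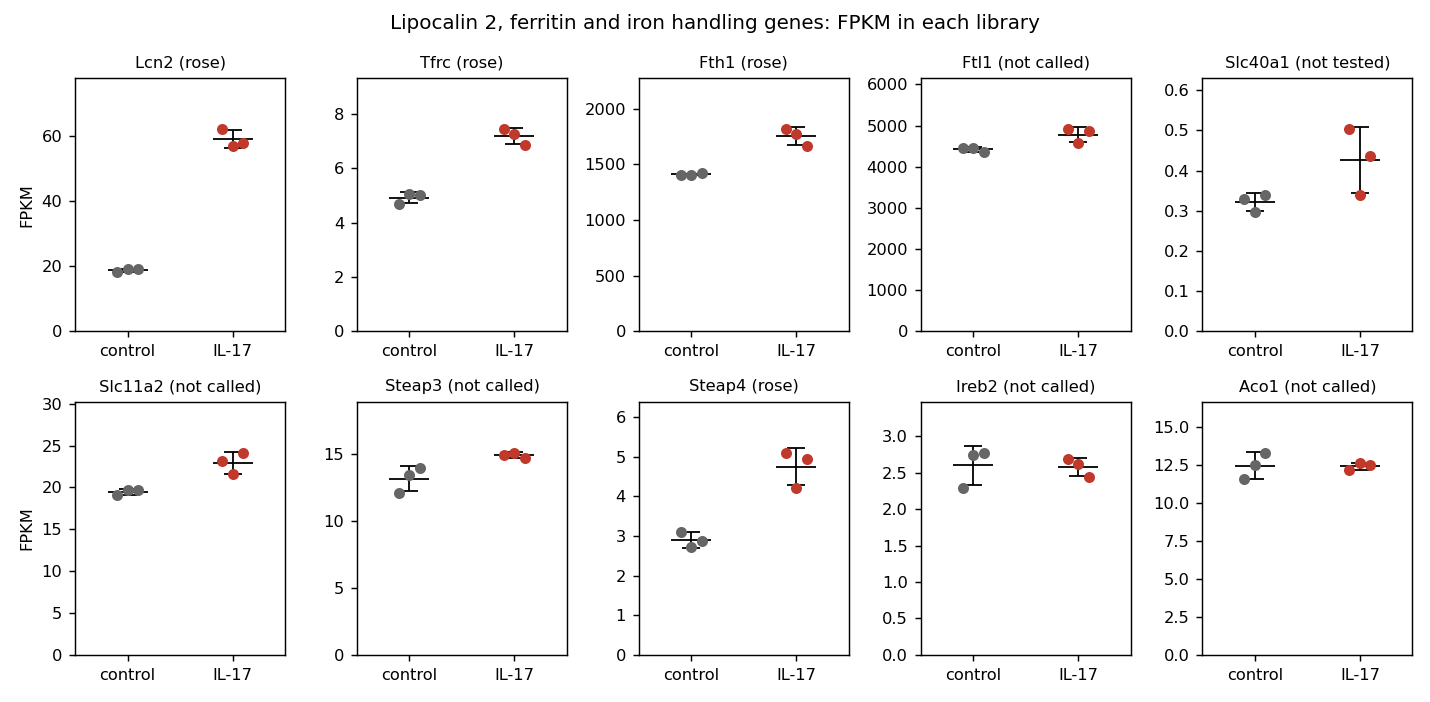
FPKM of the 10 genes in each library (points), with the mean and SD of the 3 control (grey) and 3 IL-17 (red) libraries; each axis starts at 0 and has its own range. Lcn2 is at 18.3 to 19.1 FPKM in untreated cells and 57.0 to 62.3 with IL-17, while the points of Ireb2 and Aco1 overlap.

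Lcn2 (ENSMUSG00000026822) lies on chromosome 2 from 32384633 to 32388252, minus strand. Its level was 62.3, 57.0 and 58.0 FPKM in the IL-17 libraries and 18.3, 19.1 and 19.0 FPKM in the controls. The groups were separated by far more than the spread within either, with means of 59.1 ± 2.80 and 18.8 ± 0.481 FPKM (SD, n = 3 each). The log2 difference was 1.60 (SE 0.05, 95% interval 1.48 to 1.72), with an adjusted p of 2.22e-05 by limma, the third smallest p of all tested genes. The call held in all 17 alternatives tried, with limma adjusted p between 5.48e-06 and 0.00233 and log2 differences between 1.56 and 1.65.

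The promoter of Lcn2 is shown because it is the member with the largest change. The RefSeq window of 250 bases before to 50 bases after the start (chr2:32387690-32387989, minus strand, GRCm38.p6) was searched on both strands for 4 motifs: the NF-kB consensus, a C/EBP core (TTGCNNAA), a STAT site (TTCNNNGAA) and an antioxidant response element (TGACNNNGC). NF-kB and C/EBP proteins are known to act in IL-17 signalling. The one match, in capitals, was the C/EBP core TTGCTCAA at bases -216 to -209 from the start; this motif was in 10.8% of 32851 promoter windows.
Lcn2: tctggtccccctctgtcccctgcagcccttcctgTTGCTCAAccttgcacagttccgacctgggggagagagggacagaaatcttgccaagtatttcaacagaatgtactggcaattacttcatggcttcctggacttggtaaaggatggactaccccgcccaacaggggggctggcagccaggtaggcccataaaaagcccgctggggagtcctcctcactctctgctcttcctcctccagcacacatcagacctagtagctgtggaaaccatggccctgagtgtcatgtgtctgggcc
A match is a description of letters and not a binding site, and these data hold no binding measurement.

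Of 4 genes tied to lipocalin 2 itself, 2 were tested and neither passed. Mmp9 and Slc22a17 were too low to be tested, and both were named after their values were seen. Slc22a17, reported as a lipocalin 2 receptor, was near 0, between 0 and 0.103 FPKM over the 6 libraries. Mmp9, listed as a lipocalin 2 partner, was at 0.709, 0.379 and 0.494 FPKM under IL-17. In untreated cells Mmp9 was at 0.442, 0.304 and 0.369 FPKM, and the groups overlapped. Lrp2, the endocytic receptor megalin that also binds lipocalin 2, was at 0.968 ± 0.0766 FPKM under IL-17 and 0.947 ± 0.0855 in untreated cells. Bdh2, a dehydrogenase linked to synthesis of a mammalian siderophore, was at 1.85 ± 0.228 and 1.71 ± 0.130 FPKM. Neither Lrp2 nor Bdh2 passed limma (adjusted p = 0.936 and 0.697). Lcn2 is also a granule gene of neutrophils: of 7 neutrophil markers 3 were tested and none passed (2 were higher at an unadjusted limma p under 0.05), and the summed level of the 7 was 3.70 to 10.4 FPKM under IL-17 and 2.10 to 3.77 in untreated cells. The tested markers were all higher on average under IL-17. The antimicrobial peptide gene Camp was at 2.73, 2.69 and 2.65 FPKM against 1.75, 1.30 and 2.20, without overlap. S100a8, a calprotectin subunit, was at 0.428, 0.311 and 1.98 FPKM against 0.041, 0 and 0.251, also without overlap. Its partner S100a9 was at 0.436, 0.525 and 5.00 FPKM against 0, 0.397 and 0.554. The granule genes Ltf, Elane and Ngp and the marker Retnlg were too low to be tested, with Ltf and Elane at or below 0.304 and 0.200 FPKM in every library. Ltf, Elane and Ngp were lower on average under IL-17, at means of 0.0115, 0.119 and 0.0658 FPKM against 0.110, 0.148 and 0.163. Retnlg was higher, at 0.168 against 0.0894 FPKM. The part of neutrophil transcripts in the Lcn2 difference was not tested.

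The genes whose profile lay nearest to that of Lcn2 over the 6 libraries were Nos2, Aldh3a1, Pim2, Chil1 and Csf3, by Euclidean distance between log2(FPKM + 1) profiles centred on their own means. Nos2, the inducible nitric oxide synthase, was nearest, at a distance of 0.108. Its log2 difference was 1.60, equal to that of Lcn2 to 2 decimals, and its mean level was 181.7 FPKM under IL-17 and 59.2 in untreated cells. The other distances ran from 0.284 for Aldh3a1 to 0.409 for Csf3. Since all 6 libraries fall into 2 groups, nearness here describes mainly a group difference of like size.

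The ferritin chains were among the most abundant transcripts in the cells. Ftl1, the light chain (ENSMUSG00000050708, chromosome 7, 45457944 to 45459884, minus strand), had the third highest mean FPKM of all genes, and Fth1, the heavy chain that carries the ferroxidase centre (ENSMUSG00000024661, chromosome 19, 9980598 to 9985098, plus strand), ranked 22nd. Together they took 1.68% to 1.84% of summed FPKM in IL-17 libraries and 1.53% to 1.61% in untreated cells.

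Fth1 was at 1819, 1778 and 1669 FPKM under IL-17 and at 1409, 1406 and 1419 FPKM in untreated cells. The 3 controls lay close together and every IL-17 library lay above them. Means were 1755 ± 77.8 and 1411 ± 6.73 FPKM, a log2 difference of 0.31 (SE 0.05; limma adjusted p = 0.0343). This call lay close to the threshold: it was lost when any single library was omitted. Limma adjusted p was 0.0793, 0.176 or 0.0637 on omitting IL-17 library 1, 2 or 3, and 0.0781, 0.138 or 0.134 on omitting control library 1, 2 or 3. The log2 difference stayed between 0.29 and 0.35 over the 17 alternatives, of which 7 kept the call; under TMM scaling limma adjusted p was 0.0639, and with no filter on low genes it was 0.21.

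Ftl1 was at 4918, 4571 and 4858 FPKM under IL-17 and at 4458, 4464 and 4359 FPKM in untreated cells. Its groups did not overlap, but the difference of 0.11 on the log2 scale (SE 0.06, 95% interval -0.02 to 0.24) did not pass limma (adjusted p = 0.372). The ratio of Fth1 to Ftl1 level was 0.370, 0.389 and 0.344 with IL-17 and 0.316, 0.315 and 0.326 in untreated cells. The heavy chain thus took a larger part relative to the light chain in each IL-17 library than in any control, with means of 0.367 ± 0.0228 and 0.319 ± 0.00583; this ratio was given no test.

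Ferritin transcripts have many processed copies in the mouse genome, and how shared reads were assigned is not given in the sources used here. By blastn of the coding transcript, 16 other genes matched Ftl1 and 2 matched Fth1 at 85% identity or more over at least 200 bases. Of these, 7 Ftl1 copies were in the table, and their summed level was 3.33% to 3.62% of that of Ftl1. The most abundant copy, Ftl1-ps1, was 99.6% identical over 910 bases and stood at 92.8 FPKM under IL-17 and 85.2 in untreated cells. The single Fth1 copy in the table, Gm6977, was above 0 in control library 1 alone, at 3.14 FPKM. Adding these copies to each chain gave ratios of 0.355 ± 0.0221 and 0.308 ± 0.00526. Gm10252, on the opposite strand of Ftl1 and sharing 355 exon bases with it, was at 5.77, 12.4 and 19.2 FPKM under IL-17 and 20.9, 103.7 and 111.6 in untreated cells; whether strand was used in quantification is not stated, so reads of these overlapping genes may not be separable.

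Tfrc, the transferrin receptor (ENSMUSG00000022797, chromosome 16, 32608920 to 32632794, plus strand), rose. Its level was 7.44, 7.27 and 6.84 FPKM under IL-17 and at 4.68, 5.04 and 5.01 FPKM in untreated cells. No library of one group reached into the other, and means were 7.19 ± 0.311 and 4.91 ± 0.198 FPKM. The log2 difference was 0.47 (SE 0.06, limma adjusted p = 0.00858), and the call held in 14 of 17 alternatives. Limma adjusted p became 0.058 without IL-17 library 2 and 0.0826 with replicate number added to the model. It was 0.0825 without IL-17 library 1 and control library 3 together. The 3′ IRE-bearing Tfrc transcript and the 5′ IRE-bearing Fth1 transcript were both higher with IL-17. The ratio of Tfrc to Fth1 level was 0.00409, 0.00409 and 0.0041 in the IL-17 libraries and 0.00333, 0.00359 and 0.00353 in untreated cells, a quotient of levels that was nearly the same in all IL-17 libraries.

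Steap4, a metalloreductase known to respond to inflammatory cytokines (ENSMUSG00000012428, chromosome 5, 7960457 to 7982213, plus strand), had the second largest change among the members. Its level was 5.10, 4.22 and 4.93 FPKM under IL-17 and at 3.10, 2.72 and 2.86 FPKM in untreated cells. The lowest IL-17 library lay above the highest control, and means were 4.75 ± 0.470 and 2.90 ± 0.195 FPKM. The log2 difference was 0.56 (SE 0.08; limma adjusted p = 0.0152). Limma adjusted p was 0.0653 on omitting IL-17 library 3, and 0.07 or 0.0689 on omitting control library 2 or 3, with log2 differences of 0.54, 0.53 and 0.55. Limma adjusted p was 0.074 with no filter on low genes and 0.0521 with replicate number added to the model.

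The Steap4 promoter held matches to 3 of the 4 motifs searched, in capitals in the RefSeq window below (chr5:7960222-7960521, plus strand, GRCm38.p6), and is shown for comparison with that of Lcn2. The NF-kB consensus matched at -250 to -241 and, on the opposite strand, at -226 to -217. The STAT site TTCCCGGAA lay at -116 to -108 and the C/EBP core TTGCGAAA at -87 to -80; no matches overlapped. These motifs were found in 8.46%, 8.3% and 10.8% of all promoter windows.
Steap4: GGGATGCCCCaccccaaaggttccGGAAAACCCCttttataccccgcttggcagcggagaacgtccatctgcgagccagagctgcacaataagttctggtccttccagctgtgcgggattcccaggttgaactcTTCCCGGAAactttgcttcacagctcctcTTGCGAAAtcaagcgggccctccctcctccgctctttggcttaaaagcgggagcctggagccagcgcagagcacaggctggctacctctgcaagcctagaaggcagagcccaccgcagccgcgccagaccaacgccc
Matches were not limited to genes that rose. Steap3, which did not pass, had an NF-kB and a C/EBP match in 1 of its 4 windows, Ftl1, which did not pass, had an NF-kB match, and Fth1 had 2 C/EBP matches in 1 of its 2 windows. None of the 4 motifs matched in the RefSeq windows of Tfrc, which rose, or of Aco1 and Ireb2.

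The other STEAP family genes did not pass the test. Steap3, the ferrireductase of erythroid endosomes (ENSMUSG00000026389, chromosome 1, 120190757 to 120272705, minus strand), was at 14.9, 15.1 and 14.7 FPKM under IL-17 and at 12.1, 13.4 and 13.9 FPKM in untreated cells. Its groups did not overlap, and the log2 difference of 0.17 (SE 0.06) had a limma adjusted p of 0.223. The ratio of Steap4 to Steap3 level was 0.342, 0.280 and 0.336 with IL-17 and 0.256, 0.203 and 0.206 in untreated cells. Steap1 and Steap2, the remaining family members, were at 47.2 ± 7.56 and 7.53 ± 0.242 FPKM under IL-17 and 40.9 ± 2.99 and 6.95 ± 0.541 in untreated cells (limma adjusted p = 0.453 and 0.467). Steap1 was thus the most abundant STEAP transcript per length, and Steap4 the least, in both groups.

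Slc11a2, the divalent metal transporter DMT1 (ENSMUSG00000023030, chromosome 15, 100387898 to 100425072, minus strand), was at 23.2, 21.6 and 24.2 FPKM under IL-17 and at 19.1, 19.7 and 19.7 FPKM in untreated cells. Every IL-17 library was above every control, and the log2 difference was 0.22 (SE 0.06, 95% interval 0.09 to 0.36), but it did not pass limma (adjusted p = 0.107). The deposited value is per gene, so transcripts with different 3′ ends were not told apart. Slc40a1, the iron exporter ferroportin (ENSMUSG00000025993, chromosome 1, 45908068 to 45926523, minus strand), was barely detected, at 0.503, 0.340 and 0.436 FPKM under IL-17 and 0.329, 0.297 and 0.339 FPKM in untreated cells. Its lowest IL-17 value barely exceeded its highest control value, and with no filter on low genes it did not pass (limma adjusted p = 0.52).

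The transcripts of the iron regulatory proteins did not differ detectably between the groups. Aco1, which encodes the cytosolic aconitase that becomes iron regulatory protein 1 when it loses its iron-sulphur cluster (ENSMUSG00000028405, chromosome 4, 40143081 to 40198338, plus strand), was at 12.1, 12.6 and 12.5 FPKM under IL-17 and at 11.5, 12.4 and 13.3 FPKM in untreated cells. Ireb2, which encodes iron regulatory protein 2 (ENSMUSG00000032293, chromosome 9, 54863789 to 54912530, plus strand), was at 2.68, 2.61 and 2.44 FPKM under IL-17 and at 2.29, 2.74 and 2.77 FPKM in untreated cells. The groups overlapped for both. The 95% intervals of the log2 difference were -0.14 to 0.14 for Aco1 and -0.18 to 0.17 for Ireb2, with limma adjusted p of 0.998 and 0.976. The Aco1 transcript was the more abundant per length, with Ireb2 at 0.208 ± 0.0128 of its level with IL-17 and 0.209 ± 0.0108 in untreated cells. FPKM measures transcript and not IRE binding.

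**Figure D2:**
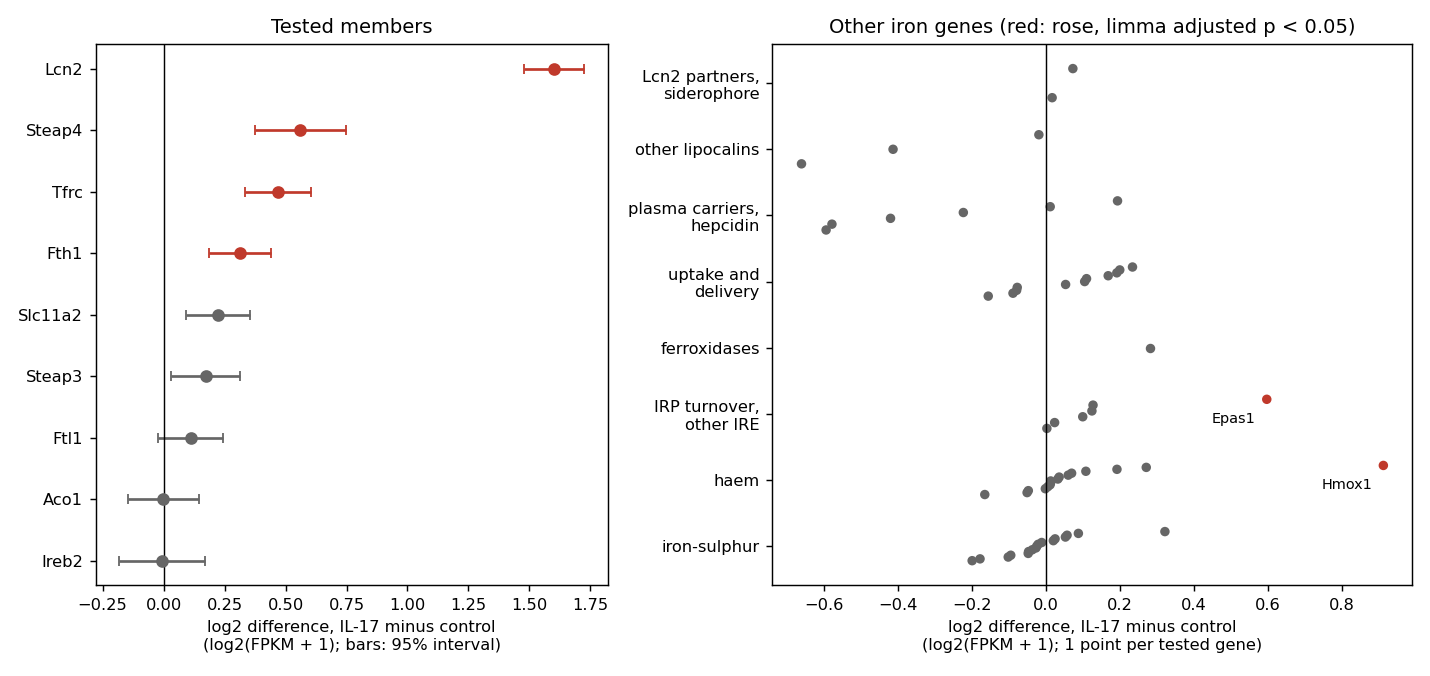
Log2 differences, IL-17 minus control, on the log2(FPKM + 1) scale: left, the 9 tested members with 95% intervals; right, 62 tested genes of 8 other iron lists, 1 point per gene. Red marks a limma adjusted p under 0.05: 4 members on the left, and Hmox1 (0.91) and Epas1 (0.60) on the right.

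Around these genes most of iron and haem metabolism did not change detectably. Of 75 genes in 8 further lists, 62 were tested; 2 rose, 0 fell and 60 did not pass limma, which is 3.23% called where 1.95% of all tested genes were called in either direction. In 11 of the 62 every IL-17 library lay above every control, or 17.7%, beside 13.3% of all tested genes. These were 4 uptake and delivery genes, 1 ferroxidase gene, 3 haem genes and 3 of the iron regulatory protein and IRE list. Every IL-17 library lay below every control for 1 plasma carrier gene (Hp), 2 uptake and delivery genes (Slc25a28 and Pcbp1) and 2 iron-sulphur genes (Glrx5 and Nfu1). Over all tested genes, groups did not overlap in 24.2%, counting both directions. At an unadjusted limma p under 0.05, 6 of the 62 were higher and 3 lower, shares near the 8.89% and 7.84% of all tested genes. The median log2 difference of the 62 was 0.01.

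Haem breakdown held the larger of the 2 increases. Hmox1, the inducible haem oxygenase that releases iron from haem, was at 526.8, 491.1 and 468.2 FPKM under IL-17 and at 257.3, 267.1 and 263.5 in untreated cells, a log2 difference of 0.91 (SE 0.06; limma adjusted p = 0.000433) that held in all 17 alternatives. The other 15 tested genes of haem synthesis, breakdown and transport did not pass. At an unadjusted limma p under 0.05, 3 of the 16 tested haem genes were higher, Hmox1 included, and 1 was lower. Epas1, which encodes the hypoxia-inducible factor HIF-2α and whose human transcript carries a 5′ IRE, was at 1.98, 2.02 and 2.39 FPKM under IL-17 and at 0.913, 0.964 and 1.35 FPKM in untreated cells (log2 difference 0.60, SE 0.10; limma adjusted p = 0.0319). On omitting IL-17 library 1, 2 or 3 its limma adjusted p was 0.0538, 0.109 or 0.107, and on omitting control library 1 or 2 it was 0.1 or 0.128; with no filter it was 0.129. Control library 3, the highest of the controls for Epas1, was also the control with the most lung transcripts, whose part in this difference was not tested; without it the log2 difference was 0.69 (adjusted p = 0.0287). Of the other 5 tested genes of that list none passed.

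No gene passed among those of uptake and delivery, ferroxidases or iron-sulphur cluster assembly. The median log2 difference of the tested uptake and delivery genes was 0.10. At an unadjusted limma p under 0.05, 1 of them was higher and 0 lower. Of 11 tested uptake and delivery genes, those of highest level were Pcbp1, an iron chaperone for ferritin, at 178.9 ± 10.1 FPKM under IL-17 and 190.3 ± 2.64 in untreated cells, and Snx3, a sorting nexin that recycles the transferrin receptor, at 113.4 ± 5.50 and 119.9 ± 2.17. Cp, the ferroxidase ceruloplasmin, was at 19.2, 19.2 and 18.5 FPKM under IL-17 and 14.3, 16.2 and 15.9 in untreated cells; the groups did not overlap, and the limma adjusted p was 0.0712. Heph, the related membrane ferroxidase, was at or below 0.0424 FPKM in every library. All 17 iron-sulphur assembly genes were tested and none passed (1 was lower at an unadjusted p under 0.05), with a median log2 difference of -0.03; Cisd1, a mitochondrial iron-sulphur protein, was at 61.3 ± 2.29 and 60.4 ± 5.78 FPKM, and Glrx5, a glutaredoxin of cluster transfer, at 24.2 ± 1.20 and 27.5 ± 1.18.

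Some plasma carriers and lipocalins that liver expresses strongly were uneven between libraries. Trf, transferrin, was at 11.99, 4.01 and 6.75 FPKM under IL-17 and 12.3, 11.6 and 9.02 in untreated cells. Rbp4, the retinol-binding lipocalin, was at 2.65, 0.299 and 0.175 with IL-17 and 2.24, 1.70 and 1.52 in untreated cells. Orm1, an acute-phase lipocalin, was at 4.49, 2.18 and 3.32 and at 5.31, 4.83 and 3.85 FPKM. In these 3 genes IL-17 library 1 lay above the lowest control, while the other IL-17 libraries lay below it. The summed level of 10 liver markers ran the same way, at 114.5, 14.0 and 22.3 FPKM under IL-17 and 105.1, 88.7 and 56.9 in untreated cells. None of the 6 tested plasma carrier genes or the 3 tested lipocalins passed; without IL-17 library 1, Rbp4 was lower with IL-17 by limma (log2 difference -1.18, adjusted p = 0.00664), and the part of the liver transcripts in this was not tested. Hp, haptoglobin, did not follow the liver markers in this way, and was at 36.3 ± 3.31 FPKM under IL-17 and 42.6 ± 4.16 in untreated cells (limma adjusted p = 0.272).

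**Figure D3:**
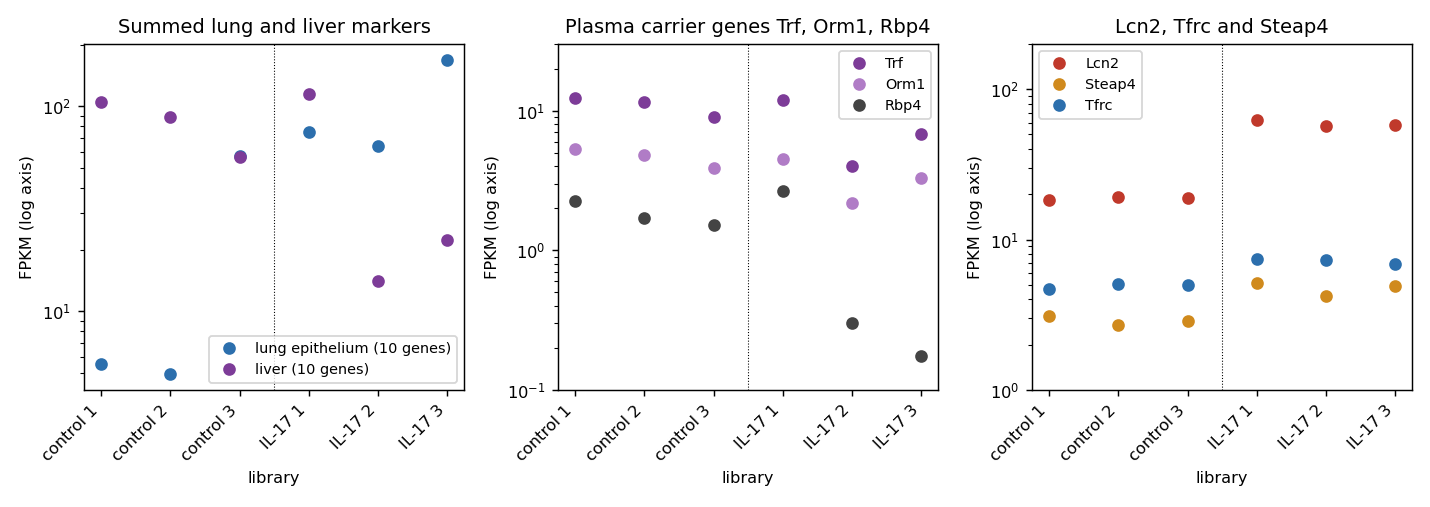
FPKM per library on log axes: the summed level of 10 lung epithelium and 10 liver markers (left), of Trf, Orm1 and Rbp4 (middle), and of Lcn2, Tfrc and Steap4 (right), with controls left of the dotted line. Lung markers sum to 57.5 in control library 3 and to 4.94 and 5.54 in the other controls, while Lcn2 is between 18.3 and 19.1 in all 3.

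Lung epithelium markers were also uneven, and Lcn2 and Steap4 are known to be expressed in epithelia or liver, so their values stand beside them. Of 6 tested lung markers none passed and 5 were higher at an unadjusted limma p under 0.05. All 10 summed to 74.7, 64.3 and 168.7 FPKM under IL-17 and to 5.54, 4.94 and 57.5 in untreated cells. Control library 3, with lung markers more than 10 times those of the other controls, had Lcn2 at 19.0, Steap4 at 2.86 and Tfrc at 5.01 FPKM, each within the range of the other controls, and Fth1 at 1419 FPKM, above both. IL-17 library 1 had summed liver markers at 114.5 FPKM, above the highest control at 105.1. It had Lcn2 at 62.3, Steap4 at 5.10, Tfrc at 7.44 and Fth1 at 1819 FPKM, each the highest of its group. Without these 2 libraries the log2 differences of Lcn2, Tfrc, Steap4 and Fth1 were 1.57, 0.46, 0.51 and 0.29, and Lcn2 alone passed limma. Their limma adjusted p were then 0.000677, 0.0825, 0.124 and 0.237. In the libraries kept, lung markers summed to 64.3 and 168.7 FPKM under IL-17 and to 5.54 and 4.94 in untreated cells. Liver markers there summed to 14.0 and 22.3 FPKM under IL-17 and to 105.1 and 88.7 in untreated cells. Both sums split by group, so this omission cannot separate them from IL-17. The part of lung and liver transcripts in the differences of these genes was not tested.

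The cells carried few transcripts of mature neurons. Of 10 neuronal markers 7 were in the table, of which 4 were below 0.5 FPKM in every library, and the sum was 15.2 to 16.7 FPKM under IL-17 and 18.4 to 19.6 in untreated cells. Of the 3 tested none passed, but 2 were lower at an unadjusted limma p under 0.05, without overlap. These were Tubb3, at means of 11.6 FPKM under IL-17 and 14.0 in untreated cells, and Ncam1, at 3.14 and 3.98. The third, Syn1, was higher on average, at 0.824 and 0.640 FPKM. Macrophage and microglia markers, which include genes of iron-recycling cells, summed to 298.9 to 332.4 FPKM under IL-17 and 286.1 to 299.5 in untreated cells. Most of that sum was Cd68 alone, at 247.1 to 284.5 and 236.5 to 253.5 FPKM. Of the 10 macrophage and microglia genes 4 were below 0.5 FPKM in every library and none of the 6 tested passed. At an unadjusted limma p under 0.05, 1 was higher and 1 lower, each without overlap. Ptprc was higher, at means of 1.04 FPKM under IL-17 and 0.754 in untreated cells, and Csf1r lower, at 19.4 and 21.5. Fibroblast and mesenchyme markers summed to 2803 to 3011 FPKM under IL-17 and 2875 to 3179 in untreated cells. Most of this was S100a4, at 2204 to 2471 and 2231 to 2595 FPKM. Of the 8 fibroblast and mesenchyme genes 1 fell. This was Vim, which encodes the intermediate filament vimentin. Its level was 222.9 ± 7.72 FPKM under IL-17 and 274.3 ± 9.14 in untreated cells (log2 difference -0.30, limma adjusted p = 0.0334). At an unadjusted limma p under 0.05, 3 of the 8 were lower, Vim included, and 1 was higher. In bulk RNA, fewer cells of a type and less RNA per cell cannot be told apart.

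**Figure D4:**
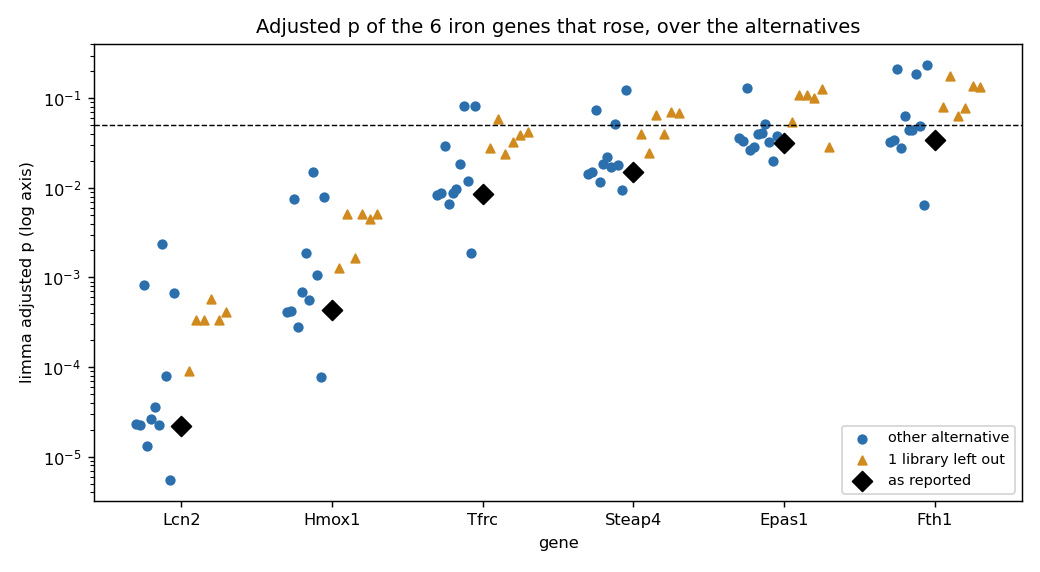
Limma adjusted p (log axis) of the 6 iron genes that rose, as reported (diamonds), with 1 library left out (triangles) and under the other alternatives (circles); the dashed line is 0.05. Lcn2 and Hmox1 stay under the line throughout, while all 6 triangles of Fth1 lie above it.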

How the data were processed

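The authors deposited a table of FPKM values for 26595 Ensembl genes in 6 libraries; fastp, StringTie, edgeR and build mm10 are named per the submitters' processing notes, and the aligner and annotation are not given in the sources used here. Symbols came from GENCODE vM21 (26525 matched). FPKM is a share of each library. It was used as deposited, as log2(FPKM + 1), a scale that understates changes of low genes. Genes of mean FPKM at least 0.5 (12953) entered limma (3.58.1; R 4.3.3), whose model held the group alone and let the prior variance follow the mean; the rest (13642) did not. The fit was tested on simulated data. The table gives no depth: in 10445 single-transcript genes the most frequent low value, if it is 1 fragment, implies 15700000 to 17500000 fragments per library. Alternatives changed pseudocount, filter, scaling, variance model or weights, added a replicate block, or left out libraries. Omitting IL-17 library 1 and control library 3 together was chosen after seeing the data. Members and lists were chosen with earlier results of these data known. Named are all members and, per list, called genes or otherwise the 2 of highest level. Also named are the 5 genes nearest to Lcn2, and ferritin copies, Steap1 and Steap2 where a result turns on them. Slc22a17, Mmp9, Gm10252 and single marker genes were chosen after their values were seen. Near-identical genes were found with blastn 2.17.0; promoter sequences are RefSeq's, and 8 of the 10 members had at least 1.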

Additional observations from a re-analysis of the deposited data

How the results depend on the processing

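Lcn2 and Hmox1 passed limma in all 17 alternatives. With the replicate block, 80 genes, 1 member and 1 other iron gene passed. Tfrc, Steap4, Fth1 and Epas1 lost their calls there (limma adjusted p = 0.0826, 0.0521, 0.187 and 0.0521). The sources used here do not state whether same-numbered libraries belong together. Correlations of same-numbered deviations were -0.144, 0.0801 and 0.206, and not every library correlated best with its own number. So few values cannot decide whether the numbers pair the libraries. Without a filter on low genes 135 genes, 2 members and 1 other iron gene passed among 26595; with array weights 1015 genes and 4 other iron genes, against 252 and 2. Leaving out 1 library gave 117 to 251 genes, 2 to 3 members and 1 to 2 other iron genes; leaving out IL-17 library 1 with control library 3 gave 160 genes and 1 member. The log2 differences of Aco1 and Ireb2, near 0, turned positive: Aco1 to 0.00011 under quantile normalization, -0.0489 to 0.0457 with 1 library left out and 0.0600 without the pair; Ireb2 -0.0705 to 0.0293 and 0.0085. Apart from leaving libraries out, the cause was not tested. Low level kept Slc40a1 out of the test.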
